A study of Mus musculus with 6 samples.

Results

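Chemokine receptors are the membrane proteins by which lymphocytes read gradients of chemokines, and 10 of their genes were examined in mouse thymus: Ccr2, Ccr4, Ccr6, Ccr7, Ccr8, Ccr9, Cxcr3, Cxcr4, Cxcr5 and Cxcr6. The members were chosen by gene symbol, as every probe that the platform annotation assigns to one of these genes. They make up 10 of the 16593 genes named on the array, with 13 probes in all. The tested samples were thymus RNA of 3 Rag2/pfp KO mouse samples, and the comparison samples were thymus RNA of 3 wild-type samples, each on its own 1-colour Illumina MouseRef-8 version 2 bead array. Rag2 is part of the recombinase needed to assemble antigen receptor genes, and pfp is an older name of the perforin gene of cytotoxic lymphocytes. The sources used here give no strain, age, sex or exact allele and do not say whether each sample came from a separate animal, so the p-values measure a spread that may be technical in part. The protocol text names the Rag2/pfp mouse for the wild-type samples too, and groups were taken from the titles and the genotype label, which do not conflict. The arrays are called KO 1 to 3 and WT 1 to 3.

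Chemokine receptors couple to inhibitory G proteins and turn a bound ligand into cell polarity and movement. In the thymus, Cxcr4 and Ccr9 and their ligands Cxcl12 and Ccl25 act on immature thymocytes in the cortex, while Ccr7 and its ligands Ccl19 and Ccl21 draw positively selected cells into the medulla. Ccr4 and Ccr8 are found on selected thymocytes and regulatory T cells, Cxcr5 guides B cells and follicular helper T cells, and Ccr6, Cxcr3, Cxcr6 and Ccr2 mark further subsets of lymphocytes and, for Ccr2, monocytes.

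The arrays were checked before the receptors were compared. Between 13729 and 13878 of 25697 probes per array had a detection p under 0.05, the probability that a negative control bead is as bright. Of 5 tested markers of double-positive thymocytes, the main cells of a wild-type thymus, all 5 were lower in KO, and their summed signal was 1280 to 2360 in KO against 39500 to 50800 in WT. Cd8a, also a marker of these cells, read at background on all 6 arrays. Heart and fat transcripts set some arrays apart within both genotypes. The summed signal of 4 heart and muscle markers was 6630 on KO 1 and 21900 on KO 2, against at most 721 on the arrays KO 3, WT 1 and WT 3, and it was 20200 on WT 2. Markers of fat summed to 33000 on KO 1, 57900 on KO 2 and 3050 on KO 3, and to 3140 on WT 1, 52900 on WT 2 and 9710 on WT 3. The transcript Xist was low, and the Y-linked Eif2s3y and Kdm5d were above background, on KO 3 and WT 2 and on no other array. Uty, also Y-linked, was above background on all 6 arrays and read 6.33 on KO 3 and 6.35 on WT 2, against 5.68 to 5.96 on the others. The tested receptors and the counts of the pathway lists are therefore given with all arrays, with KO 2 and WT 2 left out, and with KO 3 and WT 2 left out, and counts of the cell type markers described where they differ. Leaving out KO 3 and WT 2 keeps KO arrays whose heart and fat sums all lie above those of the WT arrays kept. In that fit 2 heart and muscle markers and 2 fat markers were higher in KO, against 0 and 0 with all arrays. Genotype and neighbouring tissue cannot be told apart in it.

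Of the receptors that could be measured, 3 fell in KO thymus and none rose. Of the 10 genes, 5 (Ccr6, Ccr7, Cxcr3, Cxcr4 and Cxcr5) had a probe that was above background on at least 3 of the 6 arrays and was tested. Cxcr5, Ccr7 and Cxcr3 fell in KO at an adjusted p under 0.05 (limma, Benjamini-Hochberg over all 14097 tested probes), while Ccr6 and Cxcr4 did not pass in that fit and fell when the array number was used as a block. Over all 9849 tested genes, 5.57% were called lower and 6.09% higher in KO. Cxcr5 was tested only because it was above background in WT, so the number of tested members called does not by itself set the receptors apart from other genes. Over all 13 probes, which needs no filter, every KO array lay below every WT array for 9 probes and above for 0, against 12.7% and 11.7% of all probes on the array (17.3% and 16.9% of the tested genes). Those 9 include every Cxcr5 probe, and probes of the same gene are not independent. They also include the Ccr4 probe and the Cxcr5 probe ILMN_1219316, which were at background on all 6 arrays. Fewer cells of a type and less RNA per cell cannot be told apart in whole-tissue RNA.

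**Figure D1:**
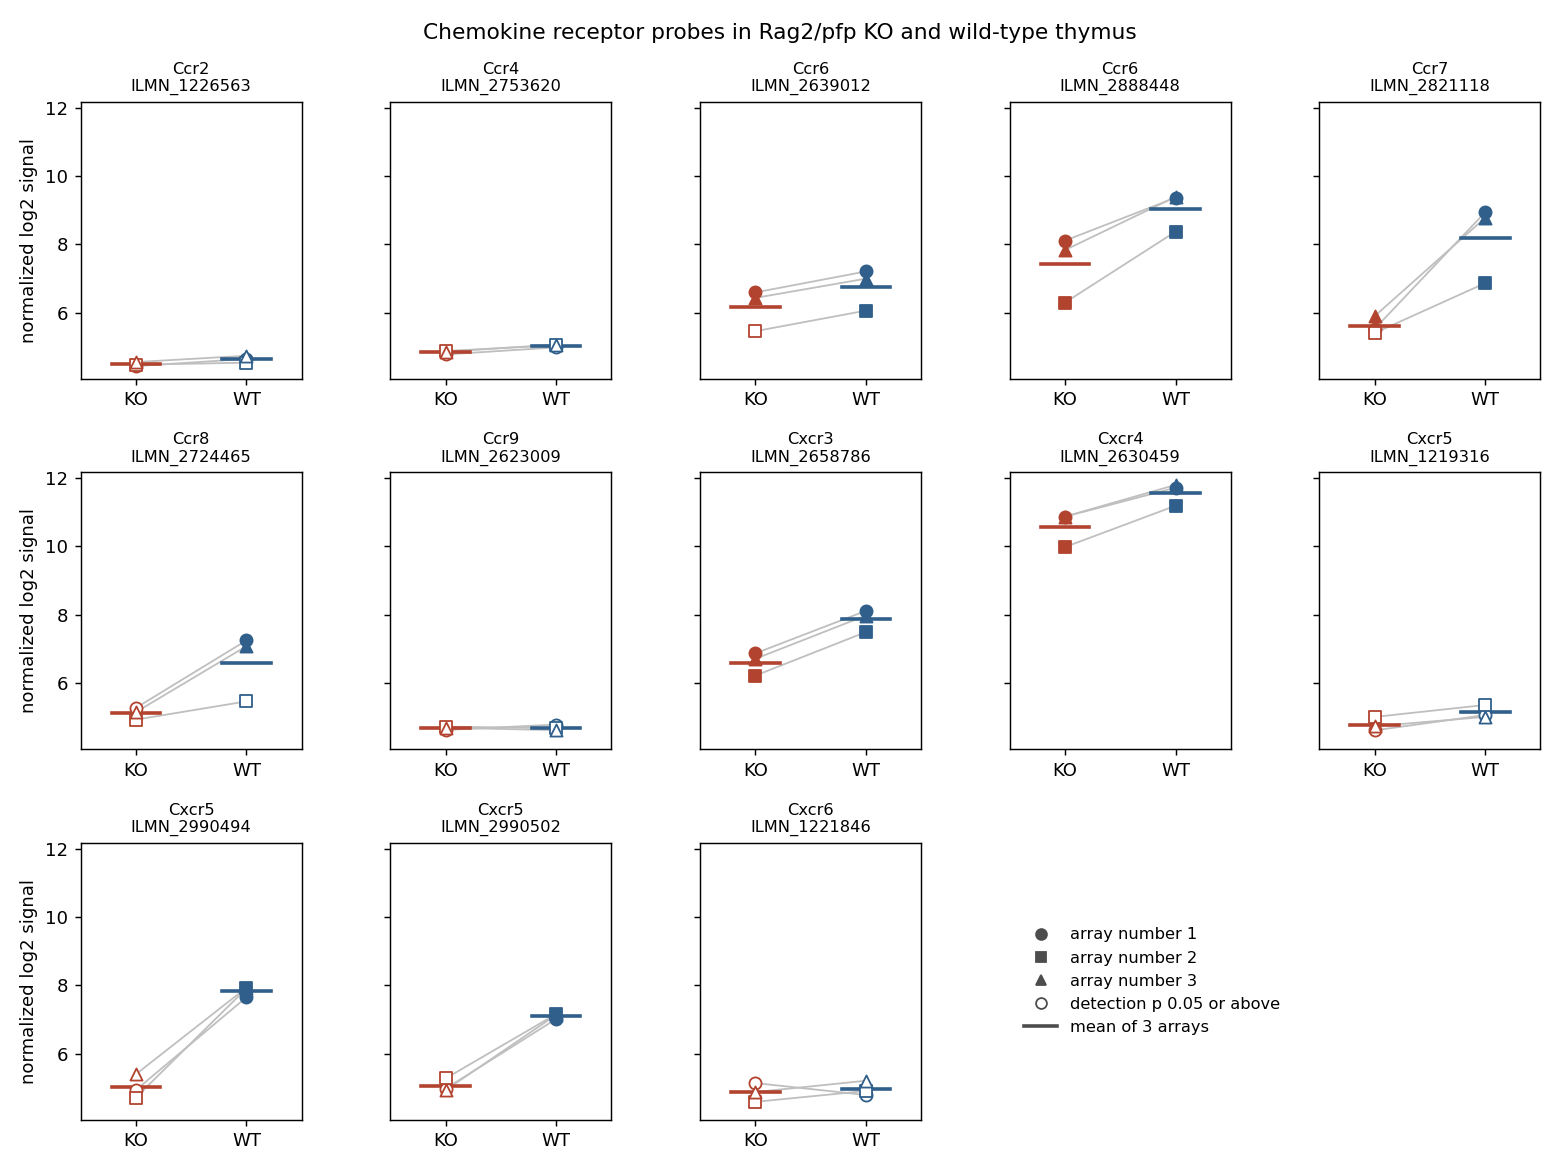
Normalized log2 signal (y axis) of each of the 13 receptor probes on the 3 KO arrays (red) and the 3 WT arrays (blue). Marker shape gives the array number, grey lines join arrays of the same number, bars are means of 3 arrays and open markers have a detection p of 0.05 or above. The Cxcr5 probes ILMN_2990494 and ILMN_2990502, Ccr7 and Cxcr3 had an adjusted p under 0.05 by limma without a block. All KO arrays also lie below all WT arrays for Ccr4, Ccr8, Cxcr4, Ccr6 ILMN_2888448 and Cxcr5 ILMN_1219316. Ccr2, Ccr4, Ccr9, Cxcr6 and Cxcr5 ILMN_1219316 stay at background on all 6 arrays. Signals of different probes are not comparable with each other.

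The array number moved with the signal of every tested receptor except Cxcr5. For 5 of the 7 tested probes (both of Ccr6 and those of Ccr7, Cxcr3 and Cxcr4) the lowest KO array was KO 2 and the lowest WT array was WT 2, the arrays with the highest heart and fat signals. With the array number as a block, all 5 tested receptor genes were lower in KO, against a background of 11.8% of genes lower and 12.4% higher in that fit. Leaving out KO 2 and WT 2 also gave 5 receptors lower (13.9% of all genes lower and 15.2% higher), and leaving out KO 3 and WT 2 gave the same 3 as all arrays (9.48% of all genes lower and 9.82% higher). What part the neighbouring tissue had in the receptor signals was not tested.

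The receptor of the thymic cortex with a usable probe was Cxcr4, the receptor for Cxcl12 and a partner of the pre-T cell receptor at the beta-selection step. Its probe (ILMN_2630459) read 10.87, 9.98 and 10.87 in KO and 11.72, 11.19 and 11.80 in WT on the normalized log2 scale. All KO arrays were below all WT arrays and WT 2 was the WT array nearest to them. The means were 10.58 ± 0.51 in KO and 11.57 ± 0.33 in WT (SD, n = 3 each), a KO minus WT difference of −0.99 (SE 0.31), which did not pass without the block (limma, adjusted p = 0.0975). Same-numbered arrays differed by −0.84, −1.21 and −0.93, and with the block the SE was 0.14 and the adjusted p 0.0141. Without KO 2 and WT 2 the difference was −0.88 (limma, adjusted p = 0.0115), and without KO 3 and WT 2 it was −1.34 (limma, adjusted p = 0.0556). Markers of double-negative thymocytes, the stage before beta-selection, summed to 9880 to 13700 in KO against 3310 to 3670 in WT, with 5 of 6 tested higher and none lower in KO (1 lower under either omission), while those of double-positive cells were lower as given above. What part these cells had in the Cxcr4 signal was not tested.

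**Figure D2:**
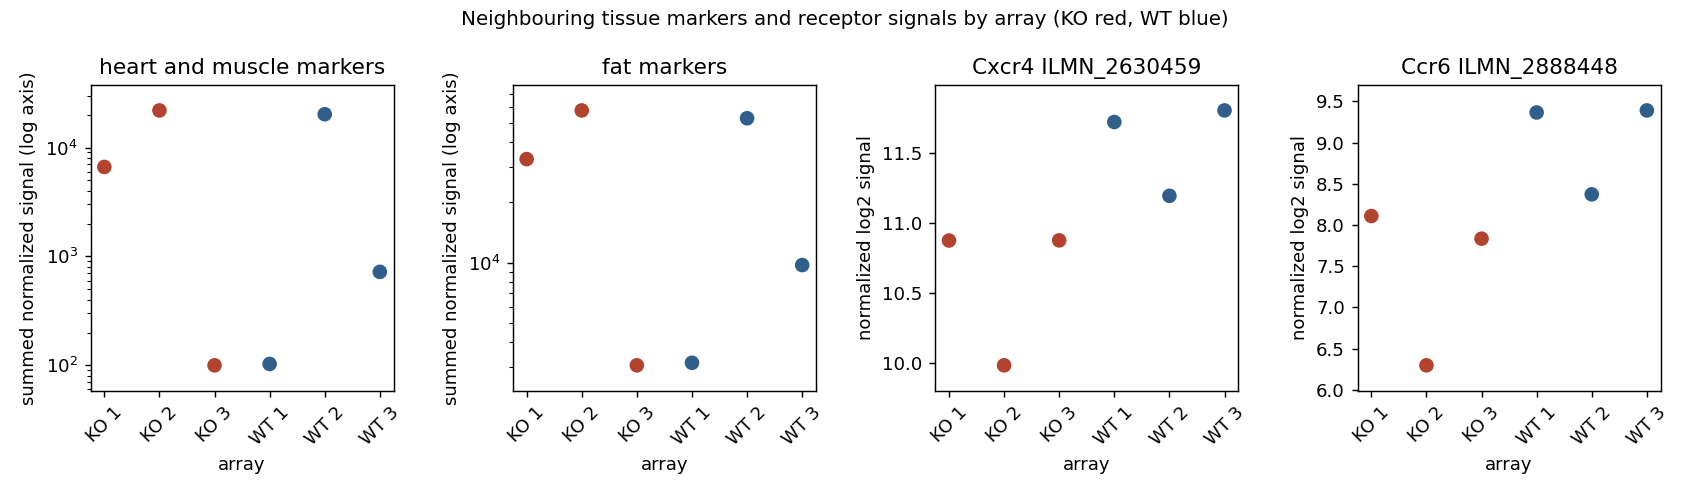
Summed normalized signal of the heart and muscle markers and of the fat markers (log axes), and normalized log2 signal of Cxcr4 and of the Ccr6 probe ILMN_2888448, on each KO array (red) and WT array (blue). KO 2 and WT 2 carry the highest marker sums and the lowest receptor signals of their genotype.

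Ccr9, the receptor for Ccl25 and, with Cxcr4, a receptor of cortical thymocytes, gave no measurable signal in either genotype. Its only probe (ILMN_2623009) had detection p-values of 0.555 to 0.792 in KO and 0.424 to 0.756 in WT, and normalized signals of 4.63 to 4.73 in KO and 4.63 to 4.79 in WT. The level of Ccr9 was therefore not assessed on these arrays, and no difference was tested.

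Ccr7, which guides selected thymocytes to the medulla and mature lymphocytes to lymph nodes, was lower in KO. The Ccr7 probe (ILMN_2821118) read 5.53, 5.41 and 5.90 in KO and 8.94, 6.87 and 8.78 in WT. The KO arrays were close to background (KO 2 had a detection p of 0.0639), and WT 2 lay between KO and the other WT arrays. The difference was −2.58 (SE 0.56), from means of 5.61 ± 0.26 in KO and 8.20 ± 1.15 in WT (SD, n = 3 each; limma, adjusted p = 0.0378). Ccr7 passed with the block (limma, adjusted p = 0.0174), without KO 2 and WT 2 (−3.17, limma, adjusted p = 0.00379) and without KO 3 and WT 2 (−3.38, limma, adjusted p = 0.00588). When a single array was left out it passed only without WT 2 (−3.25, limma, adjusted p = 0.00328), and the adjusted p reached 0.138 without WT 3. On the authors' processed values, which carry no background correction, the difference was −1.35 and did not pass (limma, adjusted p = 0.0669). Of 6 markers of mature single-positive T cells, 3 were lower and none higher in KO, and their sums overlapped, at 5510 to 8760 in KO against 8580 to 15100 in WT. The highest KO sum was that of KO 2, where Klf2 gave the largest part. Klf2 read 12.65 on KO 2, against 11.26 on KO 1, 10.52 on KO 3 and 10.96 to 11.48 in WT. The part of mature T cells in the Ccr7 signal was not tested.

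Ccr8, a receptor of regulatory and other selected T cells, was above background only on WT 1 and WT 3. The probe (ILMN_2724465) read 5.28, 4.94 and 5.16 in KO and 7.25, 5.47 and 7.08 in WT, so that all KO arrays were below all WT arrays. Set against the lowest detected signal of each KO array, the WT mean of Ccr8 was 2.14-fold higher. That mean includes WT 2, itself not detected (detection p 0.0551), so the value is no firm lower limit. Ccr8 was not tested, being detected on 2 arrays only, and in a fit with no detection filter it did not pass (limma, adjusted p = 0.162). Ccr4, a receptor for Ccl17 and Ccl22 on selected thymocytes, read 4.78, 4.88 and 4.86 in KO and 4.99, 5.05 and 5.07 in WT, all below the detection threshold (detection p from 0.15 to 0.461). Among 6 regulatory T cell markers, 3 (Foxp3, Tnfrsf4 and Gpr83) were lower and none higher in KO, and they summed to 1290 to 2380 in KO against 1620 to 4530 in WT. Foxp3, the transcription factor of these cells, fell by 1.47 (SE 0.28, limma, adjusted p = 0.0268). Ctla4, an inhibitory receptor of these and other activated T cells, differed the other way by 1.47, with all KO arrays above all WT arrays (SE 0.38, limma, adjusted p = 0.0605), and was higher in KO with the block (limma, adjusted p = 0.0248). The list had 1 marker higher and 4 lower with the block and without KO 2 and WT 2, and 1 and 3 without KO 3 and WT 2. Foxp3 and Gpr83 were named after their values were seen. The part of regulatory T cells in the Ccr8 signal was not tested.

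Cxcr5, the receptor for Cxcl13 on B cells and follicular helper T cells, was the only tested receptor that passed without any single array. Its probe ILMN_2990494 read 4.94, 4.72 and 5.40 in KO and 7.65, 7.91 and 7.93 in WT. A second probe, ILMN_2990502, read 4.98, 5.28 and 4.94 in KO and 7.02, 7.16 and 7.14 in WT. On both, all KO arrays were at background, all WT arrays were detected and WT 2 stood with the other WT arrays. Because KO gives only a bound, Cxcr5 was at least 5.02-fold lower in KO by the first probe and at least 3.03-fold lower by the second (limma, adjusted p = 0.0031 for each). With 1 array left out, the adjusted p-values of the probes were at most 0.0334 and 0.0363 (limma). Without background correction the sizes were smaller, at −1.26 and −0.80 on the log2 scale (limma, adjusted p = 0.00462 and 0.00702). The fitted differences, which are no bounds, were −2.81 and −2.04 with all arrays, −2.63 and −2.13 without KO 2 and WT 2 (limma, adjusted p = 0.00497 and 0.00379), and −2.97 and −1.95 without KO 3 and WT 2 (limma, adjusted p = 0.00853 and 0.0152). The remaining probe, ILMN_1219316, was at background on all 6 arrays (4.62 to 5.02 in KO and 5.02 to 5.37 in WT) and was not tested.

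B cell markers summed to 1050 to 1670 in KO against 4190 to 5390 in WT. Of 4 tested, Cd79a, Fcmr and Pou2af1 were lower in KO and none was higher. Cd79a and Fcmr were undetected on all KO arrays and, as with Cxcr5, were tested only because WT was above background, so the count by itself sets nothing apart. Cd79a, a chain of the B cell antigen receptor complex named here after its values were seen, was at least 15.8-fold lower in KO. The immunoglobulin M receptor gene Fcmr was at least 27.6-fold lower in KO, and Pou2af1, a B cell coactivator gene, fell by 3.50 (SE 0.23, limma, adjusted p = 0.0018). Cd79b, which signals for the antigen receptor of B cells, differed by −0.54 (limma, adjusted p = 0.212), and the Pax5 probe was at background on all arrays. What part B cells had in the Cxcr5 signal was not tested.

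Ccr6, the receptor for Ccl20 on B cells and interleukin-17-producing T cells, has a pair of tested probes. The first, ILMN_2888448, read 8.11, 6.30 and 7.83 in KO and 9.37, 8.37 and 9.39 in WT. The second, ILMN_2639012, read 6.59, 5.46 and 6.44 in KO and 7.21, 6.06 and 6.997 in WT. On the first the genotypes did not overlap, and on the second WT 2 lay below KO 1 and KO 3. Without the block neither passed, at −1.63 (SE 0.54, limma, adjusted p = 0.111) and −0.59 (SE 0.42, limma, adjusted p = 0.414). With it both were lower in KO (SE 0.20 and 0.12, limma, adjusted p = 0.011 and 0.0305), since same-numbered arrays differed by −1.26, −2.07 and −1.56 on the first probe and by −0.61, −0.60 and −0.56 on the second. Leaving out 1 array gave −1.08 on the first probe without KO 2, and −0.24 without KO 2 and −0.94 without WT 2 on the second, and neither passed with any 1 array left out (limma, lowest adjusted p = 0.0743 and 0.146). Without KO 2 and WT 2 they were −1.42 (limma, adjusted p = 0.00718) and −0.59 (limma, adjusted p = 0.0451), and without KO 3 and WT 2 they were −2.17 (limma, adjusted p = 0.0677) and −1.07 (limma, adjusted p = 0.121).

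Cxcr3, the receptor for Cxcl9, Cxcl10 and Cxcl11 on type 1 effector T cells and NK cells, was lower in KO by nearly the same amount in each numbered pair. Its probe (ILMN_2658786) read 6.87, 6.22 and 6.71 in KO and 8.12, 7.50 and 7.98 in WT, with no overlap. The means were 6.60 ± 0.34 in KO and 7.87 ± 0.33 in WT (SD, n = 3 each), which is a 2.40-fold higher signal in WT. The difference of −1.26 (SE 0.25, limma, adjusted p = 0.0305) was −1.24, −1.27 and −1.27 between same-numbered arrays, and the block reduced its SE to 0.12 (limma, adjusted p = 0.00767). It passed without KO 2 and WT 2 (−1.26, limma, adjusted p = 0.00751) and without KO 3 and WT 2 (−1.498, limma, adjusted p = 0.0313). With a single array left out Cxcr3 passed only without WT 2 (limma, adjusted p = 0.0219), and its adjusted p was 0.0506 without KO 2 and up to 0.127 without WT 3. Of 5 tested markers of NK cells and innate lymphoid cells, none was called in either direction (1 was lower under either omission), with sums of 1180 to 2370 in KO and 1320 to 2300 in WT.

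Cxcr6, the receptor for Cxcl16 on innate-like and tissue T cells, and Ccr2, the receptor for Ccl2 on monocytes and some lymphocytes, were at background throughout. Cxcr6 read 5.14, 4.59 and 4.88 in KO and 4.79, 4.91 and 5.21 in WT, with detection p-values from 0.102 to 0.843. Ccr2 read 4.44, 4.48 and 4.56 in KO and 4.65, 4.54 and 4.74 in WT, with detection p-values from 0.505 to 0.995. Neither was tested.

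**Figure D3:**
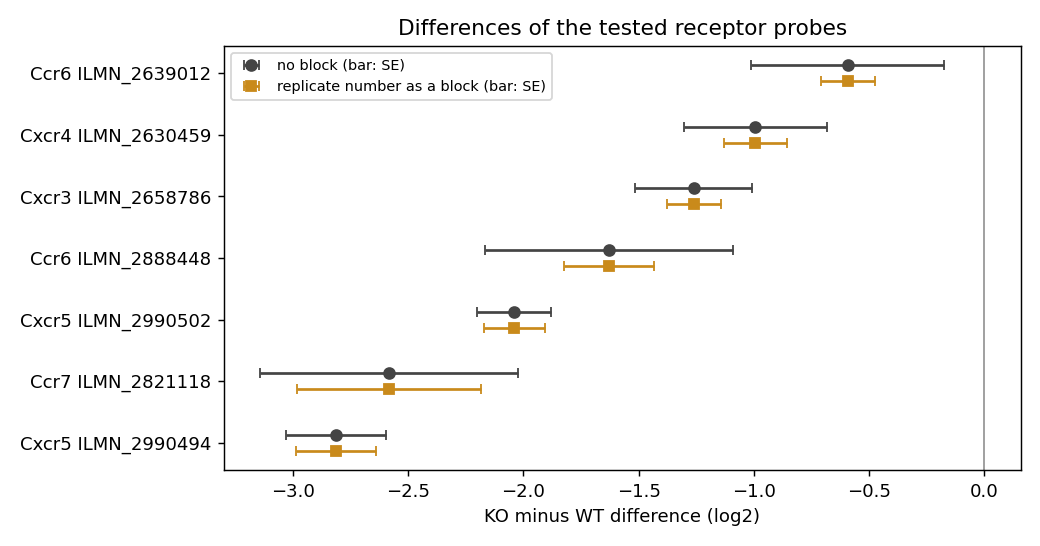
KO minus WT difference on the log2 scale (x axis, bars are SE) of the 7 tested receptor probes, without a block (circles) and with the array number as a block (squares). All 7 lie below 0, and the bars of Ccr6, Cxcr4 and Cxcr3 shrink most in proportion to their length with the block; the Cxcr5 values set WT against KO arrays that were at background.

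The start regions of the tested receptors are shown as a description, and control of these genes was not tested. RefSeq windows of 250 bases before to 50 bases after the annotated start were given for 8 of the 10 members (build GRCm38.p6), among them Cxcr3, Cxcr4 and Ccr6 of the tested ones; Ccr7 and Cxcr5 are named only. Capitals mark matches, on either strand, to the E-box CANNTG, the RUNX core TGTGGT, an ETS core AGGAAG or the KLF motif CCACCC. Each line runs 5′ to 3′ on the gene's strand.
Cxcr3 (chrX:101734098-101734397, minus strand): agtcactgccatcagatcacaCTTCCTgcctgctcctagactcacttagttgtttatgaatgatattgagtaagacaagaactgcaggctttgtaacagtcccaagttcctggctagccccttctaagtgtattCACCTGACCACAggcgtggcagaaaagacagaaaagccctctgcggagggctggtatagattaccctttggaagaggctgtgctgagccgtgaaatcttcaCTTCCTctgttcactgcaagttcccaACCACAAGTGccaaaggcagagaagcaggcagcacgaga
Cxcr4 (chr1:128592250-128592549, minus strand): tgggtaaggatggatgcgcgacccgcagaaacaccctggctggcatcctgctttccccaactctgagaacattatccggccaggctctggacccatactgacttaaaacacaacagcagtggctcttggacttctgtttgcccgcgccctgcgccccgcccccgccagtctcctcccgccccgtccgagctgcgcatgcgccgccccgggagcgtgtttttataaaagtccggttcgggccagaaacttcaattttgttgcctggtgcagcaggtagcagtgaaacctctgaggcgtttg
Ccr6, first of its annotated starts (chr17:8235793-8236092, plus strand): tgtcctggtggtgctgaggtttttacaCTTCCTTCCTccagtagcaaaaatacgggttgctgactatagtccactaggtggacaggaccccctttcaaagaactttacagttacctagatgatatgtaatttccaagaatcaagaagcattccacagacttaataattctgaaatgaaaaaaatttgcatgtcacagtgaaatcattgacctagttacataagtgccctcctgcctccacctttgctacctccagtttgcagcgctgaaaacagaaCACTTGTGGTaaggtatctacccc

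The windows differ in these letters. Cxcr3 holds 2 matches each to the E-box, RUNX and ETS letters and 0 to KLF, the first Ccr6 window holds 1, 1, 2 and 0 in the same order, and Cxcr4, at 59.3% G and C, holds none of them. The window at the other annotated start of Ccr6 holds 2 E-box matches and 0 of the other letters. Of all 32851 windows in the table, 72.3% hold the E-box letters, 16.8% the RUNX letters, 35.4% the ETS letters and 31.5% the KLF letters. In the first Ccr6 window an E-box and a RUNX match overlap in the run CACTTGTGGT, which the other Ccr6 window lacks, and the same run lies on the opposite strand of the Cxcr3 window. That run was noticed after the windows were seen and is the longest shared by the Cxcr3 window and the first Ccr6 window. It lies in 21 of all windows (0.0639%). Because it was picked for being shared, this share does not tell how often a pair of windows shares some run of that length. That was not tested. The Cxcr3 window and the first Ccr6 window each share at most 8 bases in a row with the Cxcr4 window. A match is a description of letters, and binding was not measured.

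The ligands of the receptors moved in both directions. Of 19 ligand genes on the array 13 were tested, 2 rose and 4 fell in KO. The 13 had a median difference of −1.26 against 0.01 over all tested genes. The 4 were Ccl8 and Ccl21a, Ccl21b and Ccl21c, near-identical copies whose probes may not tell them apart. Each copy enters the counts and the median separately. Without KO 2 and WT 2, 2 rose and 9 fell, and without KO 3 and WT 2, 2 rose and 5 fell. Over all tested genes 6.09% were higher and 5.57% lower with all arrays. The shares were 15.2% and 13.9% without KO 2 and WT 2, and 9.82% and 9.48% without KO 3 and WT 2. Cxcl12, the ligand of Cxcr4 made by thymic stroma, read 14.13, 13.89 and 14.22 in KO and 11.92, 12.69 and 12.13 in WT, with no overlap. It rose by 1.83 (SE 0.24, limma, adjusted p = 0.00986). Ccl25, the ligand of Ccr9 made by cortical epithelium, read 14.55, 14.15 and 14.83 in KO and 13.35, 12.37 and 13.35 in WT and rose by 1.49 (SE 0.33, limma, adjusted p = 0.0406). Both rose in KO while their receptors were lower (Cxcr4, with the block) or not measurable (Ccr9).

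The Ccr7 ligand Ccl21 fell. The Ccl21a probe, for the Ccr7 ligand made by medullary epithelium, read 10.48, 9.50 and 11.01 in KO and 14.10, 12.85 and 14.32 in WT, and fell by 3.43 (SE 0.52, limma, adjusted p = 0.0149). Ccl21b and Ccl21c, near-identical copies whose probes may not tell them apart, differed by −3.48 each. Ccl8, an inflammatory chemokine that in mice is a ligand of Ccr8, fell by 1.68 (SE 0.38, limma, adjusted p = 0.0408). Cxcl16 and Cxcl9, the ligands of Cxcr6 and Cxcr3 with the highest signals among those not called, differed by −0.34 (limma, adjusted p = 0.634) and −0.65 (limma, adjusted p = 0.358). The other tested ligands, given here to complete the list, ranged from −2.00 for Ccl17 to −0.17 for Cxcl10 and did not pass, while Ccl17 passed with the block (limma, adjusted p = 0.00949). Cxcl12 and the Ccl21 probes missed the threshold without KO 1, WT 1 or WT 3 (limma, adjusted p up to 0.0717), and Ccl25 and Ccl8 also without KO 3 (limma, adjusted p up to 0.142). Markers of the medullary epithelium summed to 1910 to 5320 in KO against 10800 to 28500 in WT, with 2 of 6 lower (4 with the block, 3 without KO 2 and WT 2, 4 without KO 3 and WT 2). Those of the cortical epithelium summed to 21900 to 34500 in KO against 5880 to 11700 in WT, with 5 of 5 tested higher, of which Foxn1 was tested only because KO was above background. Ccl21a and Ccl25 themselves are in these lists, and the part of epithelial cell numbers in the ligand signals was not tested.

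**Figure D4:**
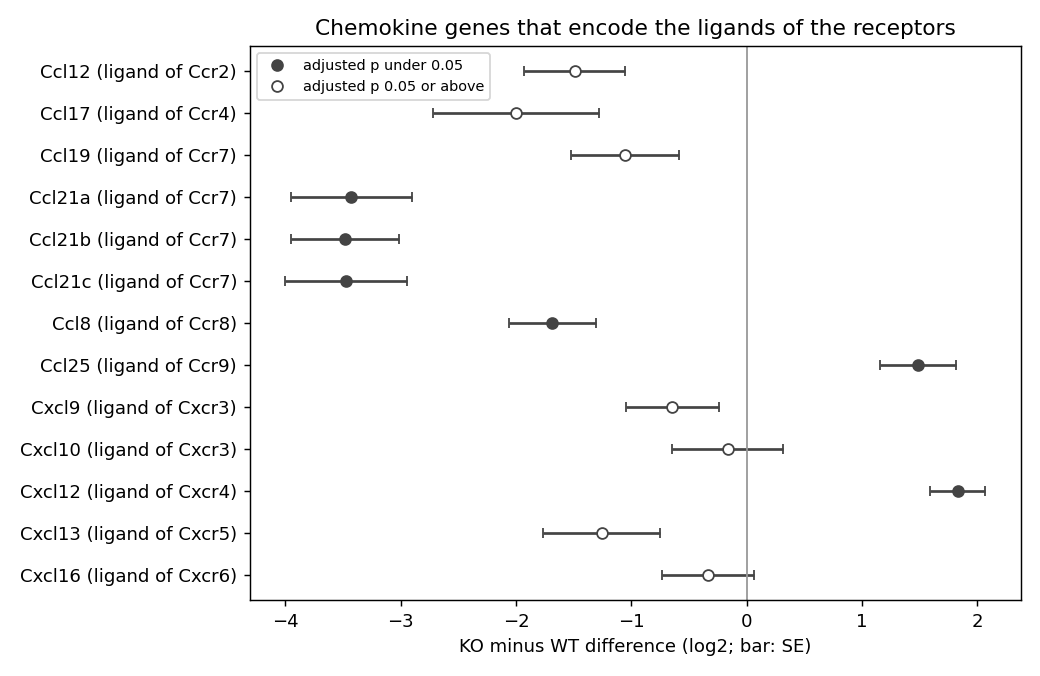
KO minus WT difference on the log2 scale (x axis, bars are SE) of the 13 tested chemokine genes, each with a receptor it binds; filled points have an adjusted p under 0.05. Cxcl12 and Ccl25 lie above 0, and the 3 Ccl21 probes lie lowest.

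Other chemoattractant receptors did not pass without the block. Of 9 tested, none was called in either direction by limma, and their median difference was 0.24. Gpr183, an oxysterol receptor that positions lymphocytes, differed by −1.44 (SE 0.37, limma, adjusted p = 0.058), and the chemokine-binding receptor Ackr1 by −0.34 (limma, adjusted p = 0.484). With the block 4 of the 9 were higher and 2 lower, Gpr183 among the lower (limma, adjusted p = 0.00758). In that fit 12.4% of all tested genes were higher and 11.8% lower. The counts were also 4 and 2 without KO 2 and WT 2, and 0 and 1 without KO 3 and WT 2. Of all tested genes, 15.2% were higher and 13.9% lower without KO 2 and WT 2, and 9.82% and 9.48% without KO 3 and WT 2. S1pr1, the receptor for egress from the thymus, was at background on all arrays.

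Some genes that act downstream of the receptors fell. Of 19 tested genes of receptor signalling, 4 fell and none rose (8 and 0 with the block, 9 and 0 without KO 2 and WT 2, 6 and 0 without KO 3 and WT 2), with a median difference of −0.58. Over all tested genes 5.57% were lower and 6.09% higher, and with the block 11.8% and 12.4%. The shares were 13.9% and 15.2% without KO 2 and WT 2, and 9.48% and 9.82% without KO 3 and WT 2. Rgs14 and Rgs10, which shorten G protein signals, were lower in KO, Rgs14, tested only because WT was above background, at least 2.51-fold (limma, adjusted p = 0.00666) and Rgs10 by −1.51 (SE 0.18, limma, adjusted p = 0.00793). Gpsm3, a G protein modulator, fell by 1.26 (SE 0.20, limma, adjusted p = 0.0159), and Coro1a, an actin regulator of lymphocytes, by 1.23 (SE 0.27, limma, adjusted p = 0.0398). The G protein subunit genes Gnai2 (−0.43, limma, adjusted p = 0.185) and Gnb1 (−0.33, limma, adjusted p = 0.196) did not pass. Among these 4, Rgs14 passed without any single array, Rgs10 and Gpsm3 missed without KO 1, WT 1 or WT 3, and Coro1a without any array but WT 2 (limma, adjusted p up to 0.148).

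Of 15 tested genes of adhesion and migration, 3 fell and 1 rose (5 and 1 with the block and without KO 2 and WT 2, 4 and 0 without KO 3 and WT 2), with a median of −0.28. Over all tested genes 5.57% were lower and 6.09% higher with all arrays, and 11.8% and 12.4% with the block. The shares were 13.9% and 15.2% without KO 2 and WT 2, and 9.48% and 9.82% without KO 3 and WT 2. Cd69, which retains cells in the thymus by removing S1pr1 from the surface, fell by 3.97 (SE 0.42, limma, adjusted p = 0.00621). Plxnd1, a semaphorin receptor of thymocytes, fell by 1.53 (SE 0.22, limma, adjusted p = 0.012), and the adhesion ligand Icam2 by 1.09 (SE 0.18, limma, adjusted p = 0.0194). Sgpl1, the lyase that degrades the egress signal sphingosine-1-phosphate, rose by 1.40 (SE 0.26, limma, adjusted p = 0.025). Vcam1 (0.52, limma, adjusted p = 0.41) and Selplg (−0.44, limma, adjusted p = 0.385) did not pass. Cd69 passed without any single array, Plxnd1 missed without KO 1, WT 1 or WT 3, and Icam2 and Sgpl1 also without KO 3 (limma, adjusted p up to 0.107).

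The genes most alike to the receptors that fell were found from Pearson's r over the 6 arrays, which share the split by genotype, and are a description. For Cxcr5 they were Cd8b1, a co-receptor chain of double-positive thymocytes, at 0.997, Ssbp2 at 0.995 and Itgb1bp1 at 0.995. For Ccr7 they were Insm1 at 0.999, Aoc1 at 0.998 and Cadps at 0.998. For Cxcr3 they were Slc26a6 at 0.9997, Ino80b at 0.999 and Snrpc at 0.998. The KO values of Cxcr5 behind these correlations were at background, and those of Ccr7 were close to it.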

How the data were processed

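RNA of 3 Rag2/pfp KO and 3 wild-type thymus samples was analysed from the deposited tables, with groups from the titles. Probe intensities, linear and not normalized between arrays as their values show, were deposited by the authors, and a detection p-value was deposited beside each, per the file headers. GenomeStudio 2011.1 is named in the submitters' processing notes. The log2 values of a second table deposited by the authors were within 0.00187 of quantile-normalized log2 signals, each column with a median of 7.48 and running towards higher signal, so that scale, centring and direction were settled from the values; the sources used here give no other step.

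Intensities were background corrected, quantile normalized and logged with the neqc function (limma 3.58.1, run in R 4.3.3; offset 16, background from detection p-values). Probes with a detection p under 0.05 on at least 3 of 6 arrays were tested (14097 of 25697) with lmFit and eBayes, as KO minus WT, without a block, and p-values were adjusted over all of them. Among a gene's tested probes the one of highest mean represents it, and 23978 probes carry 1 gene symbol and 1719 none. The gene IDs of all 13 receptor probes gave the same symbols in the RefSeq gene table. Where no array of a genotype detected a probe, its fold is a bound: the brighter genotype's mean against the dim arrays' mean, each dim array entering at its lowest detected signal or at its own value for that probe if higher. The bound is firm only where every array of the brighter genotype detected the probe, which was not so for Ccr8. Summed signals add the linear normalized values of a list's probes.

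Arrays numbered alike carry the same tag in the labels' descriptions. Their deviations from the genotype means correlated over tested probes at 0.104, 0.75 and 0.559 for numbers 1, 2 and 3. All are above the 0.1 set for pairing, though KO 1 correlated at 0.108 with WT 3 and KO 3 at 0.727 with WT 1. By that threshold the array number was taken to pair the samples in the fit with a block. Xist and the Y-linked Eif2s3y and Kdm5d differed between KO 2 and WT 2 and between KO 3 and WT 3. The heart and muscle sum was 6630 on KO 1 and 103 on WT 1. The calls of Ccr6 and Cxcr4 in that fit rest on this pairing. No 2 arrays held equal signals throughout. The fit was tested on simulated data. Members, lists and alternatives were chosen with earlier results of these data known. The rule for names took all members, of each pathway list the called genes (up to 6) and the 2 uncalled of highest mean, 3 genes most alike to each called member, and up to 3 markers of highest mean per cell type, not all of which are printed; names outside it were chosen after their values were seen. The number of arrays limits precision. Tables and figures used Python 3.11.15, pandas 2.3.3 and matplotlib 3.10.9.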

Additional observations from a re-analysis of the deposited data

How the results depend on the processing

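The 7 tested receptor probes kept their direction in all 122 recomputed values. Of these, 101 also kept their side of the threshold, 13 no longer passed and 8 newly passed. Direction could not change where a setting left the difference as it was. Such settings were the replicate block, the changed detection filters and the mean-variance trend with robust moderation. The fit without background correction and that on the authors' values gave the same differences, so they are not separate checks. Without background correction and on the authors' values, 2 receptors were lower (Cxcr3, at −0.69, and Cxcr5), and with no detection filter the same 2, Ccr7 then having an adjusted p of 0.0627 (limma). Requiring a detection p under 0.01 on all 6 arrays left 1 (Cxcr3), because Ccr7 and Cxcr5 were then untested. The replicate block, array weights and leaving out both arrays numbered 2 each gave 5 receptors lower. Over all genes, 1223 were higher and 1163 lower with the replicate block, 2459 and 2622 with array weights, 1497 and 1373 without both arrays numbered 2, and 967 and 934 without KO 3 and WT 2, against 600 and 549 in the fit of all arrays. Leaving out 1 array at a time gave 1 to 3 receptors lower (1 except without WT 2), 66 to 730 genes higher and 85 to 776 lower; the cause was not tested. The replicate block ended no call among the receptors. Array weights did not converge by the default method and were estimated gene by gene. A chip block was not run, since no header names a chip. For probes near background (Ccr7, Ccr8 and Cxcr5 in KO), signal over background limits the size of the difference.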
